A study of Rattus norvegicus with 64 samples.

Results

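The genes described here are 10 members of the NF-κB system of transcription factors: the subunit genes Nfkb1, Nfkb2 and Relb, the inhibitor-family genes Nfkbia, Nfkbie and Nfkbiz, the feedback genes Tnfaip3, Tnip1 and Birc3, and the target gene Tnfaip2. They were chosen by name, as 10 of the 30045 gene symbols in each of the deposited count tables, and all 10 passed the filter on low counts in both tables. RNA was sequenced from a piece of lung of each of 64 male rats of the outbred Sprague-Dawley strain. The rats had breathed filtered air or the dust of fracking sand, a mainly quartz sand used to prop open rock fractures in oil and gas wells, for 6 hours a day on 4 days in a whole-body chamber. Lungs were taken 1, 7 or 27 days after exposure ended. One study used dust at 10 mg/m3, with 5 rats on air and 5 on dust for day 1, as many for day 7, and 4 on each for day 27. Another used 30 mg/m3, with 6 rats in each of its 6 groups and its own air-breathing rats. No source used here gives the ages of the rats. Each library title carries a number of its own, taken here as the number of 1 rat, and p-values therefore measure the spread between these libraries.

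NF-κB proteins are dimers of the products of Nfkb1, Nfkb2, Rel, Rela and Relb. In resting cells most of these dimers are held in the cytoplasm by inhibitors, among them IκBα (Nfkbia) and IκBε (Nfkbie), until signals from receptors of cytokines or microbial products lead to phosphorylation and loss of the inhibitor. The freed dimers bind short κB sites in DNA and switch on genes that include their own inhibitors, so the response limits itself. Nfkbiz encodes IκBζ, an unusual nuclear member of the inhibitor family that is needed for a later subset of inflammatory genes. Tnfaip3 encodes a ubiquitin-editing enzyme that shuts signalling down, Tnip1 a ubiquitin-binding partner of that enzyme, and Birc3 a ubiquitin ligase that acts at tumour necrosis factor receptors. In the lung, macrophages and epithelial cells use this system in their response to inhaled particles and microbes.

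Because this feedback acts through κB sites, the sequences just before the start of the members are shown first. RefSeq promoter windows of the rat assembly GRCr8, running from 250 bases before to 50 bases after the annotated start, were found for 8 of the 10 members, all but Relb and Birc3. The count tables were made on the build Rnor_6.0, so these coordinates apply to GRCr8 alone. A match to the κB motif on either strand was found in 7 of the 8 windows, against 2515 of all 33469 windows (7.51%). The 4 members below are printed because the differences described later turn on them. Each is given 5′ to 3′ on the gene's strand, as the 250 bases before the start, with letters that belong to a κB motif match in capitals.
Nfkbiz, chr11:58251471-58251720, plus strand: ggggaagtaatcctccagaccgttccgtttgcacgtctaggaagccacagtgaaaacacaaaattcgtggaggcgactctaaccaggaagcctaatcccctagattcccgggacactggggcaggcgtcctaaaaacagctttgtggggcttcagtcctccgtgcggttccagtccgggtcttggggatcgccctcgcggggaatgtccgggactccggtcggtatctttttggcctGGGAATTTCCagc
Nfkbia, chr6:78597073-78597322, minus strand: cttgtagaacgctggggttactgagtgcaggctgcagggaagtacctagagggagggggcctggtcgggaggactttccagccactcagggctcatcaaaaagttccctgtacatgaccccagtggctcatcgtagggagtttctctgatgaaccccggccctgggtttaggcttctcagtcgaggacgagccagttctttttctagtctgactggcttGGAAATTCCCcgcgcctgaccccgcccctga
Tnip1, chr10:39584962-39585211, minus strand: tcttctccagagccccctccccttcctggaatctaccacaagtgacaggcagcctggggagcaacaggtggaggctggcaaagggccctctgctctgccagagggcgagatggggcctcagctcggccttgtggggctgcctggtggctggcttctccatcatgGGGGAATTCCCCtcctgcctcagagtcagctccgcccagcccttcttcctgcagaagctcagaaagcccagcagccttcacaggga
Tnfaip2, chr6:136297832-136298081, plus strand: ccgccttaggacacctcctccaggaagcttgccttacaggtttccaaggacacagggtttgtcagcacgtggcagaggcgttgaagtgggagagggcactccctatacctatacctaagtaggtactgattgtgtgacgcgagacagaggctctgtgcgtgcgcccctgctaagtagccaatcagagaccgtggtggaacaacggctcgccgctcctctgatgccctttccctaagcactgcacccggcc

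Nfkbiz held 1 match, the letters GGGAATTTCC, at positions -13 to -4 from its start. Nfkbia held the same letters on the opposite strand at -31 to -22, which read GGAAATTCCC on its own strand. In Tnip1, 4 overlapping matches on both strands filled positions -86 to -75. Tnfaip2 held no match in this window, which says nothing of sites elsewhere. Among the members not printed, Nfkb2 held GGGACTTTCC at -20 to -11, Nfkbie GGGGGATTCC at -164 to -155 and Nfkb1 GGGAATTTCC just after its start, at 3 to 12. Tnfaip3 held matches at 3 places, the most distant at -170 to -161. A match is a stretch of letters and was not tested for binding.

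**Figure D1:**
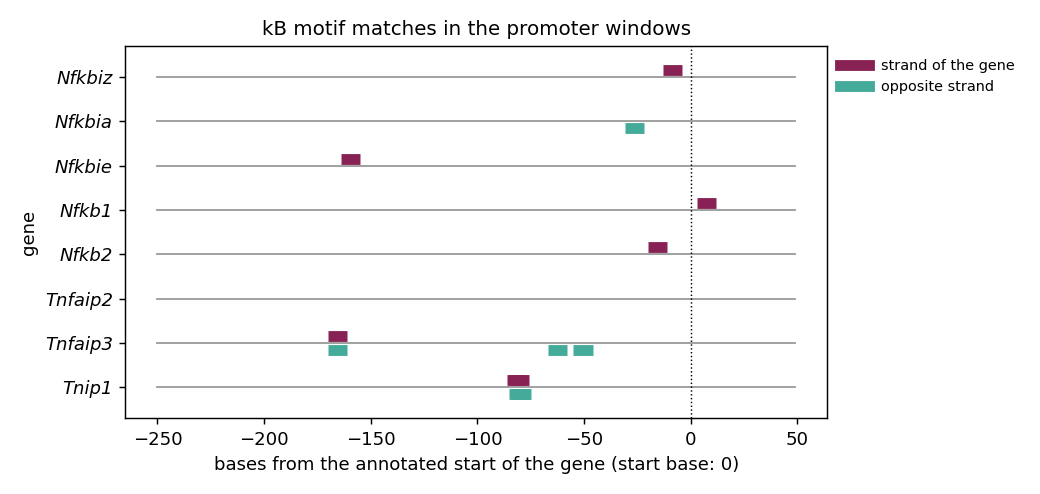
Positions of κB motif matches in the promoter windows of 8 members, as distance in bases from the annotated start (horizontal axis), with 1 line per gene. A reader should see matches in 7 of the 8 windows and none in that of Tnfaip2.

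Library totals ran from 3420235 to 10637687 counts in the 10 mg/m3 study and from 4739864 to 12359518 in the 30 mg/m3 study. Dust rat 27 at day 1 of the 10 mg/m3 study had the lowest total, so its values carry the widest counting error. All 8 alveolar type 2 cell markers were present in every group, summing to 16488 to 29462 CPM, counts scaled to the library total, as a check of the labelled tissue. Air rats 51 and 53 at day 1 of the 30 mg/m3 study stood apart in the number of genes with counts, up to 22077 against at most 19731 in the other groups, and tests of the members that use these 2 rats are given with and without them. Dust rats had higher rat numbers than air rats in every comparison. A clock score, the mean log2 CPM of Dbp, Tef and Nr1d2 minus that of Arntl, differed between the day 1 groups of the 10 mg/m3 study without overlap, from -1.75 to -0.803 in air and from 0.109 to 1.96 in dust. The same held at day 27 of that study, from -1.36 to -0.113 in air and from 0.381 to 1.73 in dust. Time of day, order of handling and dust cannot be told apart on these days. At day 1 of the 10 mg/m3 study, mitochondrial ribosomal RNA took a share of counts of 0.0961% to 3.01% in the air rats, with a median of 0.127%. In the dust rats of that day it took 0.493% to 2.62%, with a median of 0.785%.

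The members varied little between groups. Member levels are given as CPM scaled by TMM factors, which correct for differences in library composition, and they are compared only within a gene. The factors were computed separately in each study. An order of groups across the studies therefore also holds any difference between the studies, and is not a comparison of doses. The ratio of the highest to the lowest of the 12 group means ran from 1.21 for Tnfaip3 to 1.55 for Nfkbiz. Nfkbiz was lowest in the day 1 air group of the 30 mg/m3 study, at 19.3 ± 1.68 CPM (SD, n = 6), and highest in dust at day 27 of that study, at 30.0 ± 5.26 CPM (SD, n = 6). For 5 members, Nfkb1, Nfkb2, Relb, Tnfaip2 and Tnfaip3, the lowest group mean was that of 30 mg/m3 dust at day 1. For Nfkb2, Relb, Tnfaip2 and Nfkbie, the highest was that of 10 mg/m3 dust at day 1. When the 12 group means of a member were put in order, the ranges of each group and its neighbour overlapped for every member. Neighbours in such an order are the groups most alike, so this overlap says nothing of groups farther apart. The lowest count of a member in any library was 30, for Birc3, and the highest 2766, for Nfkbia. In pieces of whole lung, fewer cells of a type and less RNA per cell cannot be told apart.

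**Figure D2:**
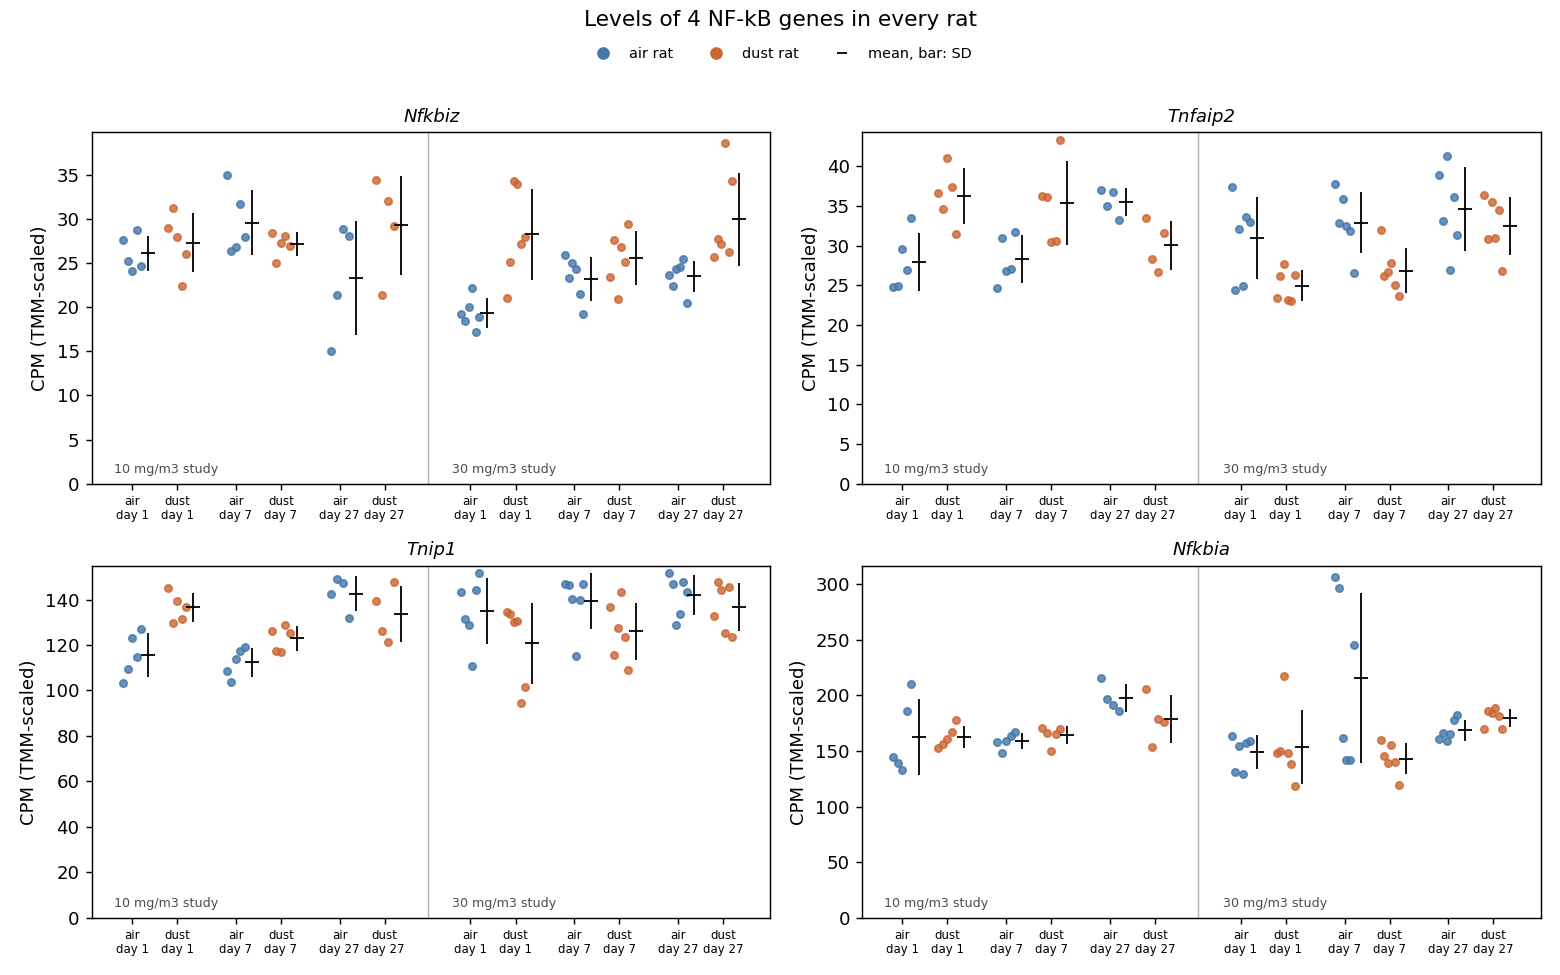
TMM-scaled CPM (vertical axes) of Nfkbiz, Tnfaip2, Tnip1 and Nfkbia in each rat (points) of the 12 groups (horizontal axis), with black marks for the group mean ± SD. A reader should see Nfkbiz higher in 30 mg/m3 dust than air at days 1 and 27, Tnfaip2 higher in 10 mg/m3 dust but lower in 30 mg/m3 dust at day 1, and 3 air rats with high Nfkbia at day 7 of the 30 mg/m3 study.

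At 10 mg/m3, no member passed the adjusted threshold of 0.05 in edgeR's quasi-likelihood test on any day. At day 1, where 0.128% of the 15668 genes tested passed, 5 of the 10 members had an unadjusted p under 0.05, against 18.9% of all genes. These were Tnfaip2, Tnip1, Nfkbie and Nfkb2 with higher values in dust, and Birc3 with a lower one. The median log2 fold change of the 10 members was 0.10, against -0.01 over all genes tested, and 8 of 10 were above 0. DESeq2 called 2 members that day, Tnfaip2 and Tnip1, and limma voom called none. Between the alternative settings, DESeq2 and limma voom among them, 0 to 474 of all genes passed, against 20 in edgeR. The levels of 2 of the 10 members, Tnip1 and Birc3, did not overlap between air and dust rats, against 3.43% of all genes.

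At day 7 of the 10 mg/m3 study 0.0% of genes passed, and 1 member, Tnfaip2, had an unadjusted p under 0.05, against 3.96% of all genes. At day 27, again 0.0% passed, and 2 members, Nfkbiz and Tnfaip2, had an unadjusted p under 0.05, against 2.36%. No member was free of overlap between air and dust on either day, where 1.36% and 1.97% of genes were. For the mean of the 3 days 0.0319% of genes passed, no member among them, and 3 members, Nfkbie, Tnfaip2 and Tnip1, had an unadjusted p under 0.05, against 9.27%. For Tnfaip2 and Tnip1 these means were 0.15 ± 0.06 (SE; edgeR adjusted p = 0.491) and 0.09 ± 0.04 (adjusted p = 0.515). DESeq2 and limma voom also called no member at day 7, at day 27 or for the mean.

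At 30 mg/m3, no member passed on a single day, but 2 passed for the mean of the 3 days: Nfkbiz rose and Tnfaip2 fell. For that mean, 1.2% of the 15551 genes tested passed, 0.997% upward and 0.206% downward. A further 3 members, Birc3, Tnip1 and Nfkb1, had an unadjusted p under 0.05, which makes 5 of 10 against 17.8% of all genes. Limma voom called Nfkbiz alone and DESeq2 called 2 members. Between the alternative settings, these 2 among them, 1 to 1014 of all genes passed for that mean, against 187 in edgeR. Only 2 of the 10 members, Nfkbiz and Birc3, had a mean effect above 0, and the members' median was -0.10, against 0.01 over all genes.

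On single days of the 30 mg/m3 study, 0.0%, 0.0643% and 0.0% of genes passed at days 1, 7 and 27. At day 1, Nfkbiz and Tnfaip2 had an unadjusted p under 0.05, against 15% of genes. At day 7 Nfkbia and Tnfaip2 did, against 4.99%, and at day 27 Nfkbiz and Birc3 did, against 7.34%. No member was free of overlap at day 1 or day 7, where 0.367% and 0.714% of genes were. DESeq2 called Nfkbiz at day 1, Nfkbia at day 7 and no member at day 27. Limma voom called no member on any of these days. Between the alternative settings, 0 to 877 of all genes passed at day 1 and 0 to 55 at day 7, against 0 and 10 in edgeR. Without air rats 51 and 53, edgeR called 3 members at day 1, Nfkbiz, Tnfaip2 and Nfkb1, and the same 3 for the mean of the days. Calls over all genes rose too, from 0 to 877 at day 1, so these added calls are not particular to the members.

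**Figure D3:**
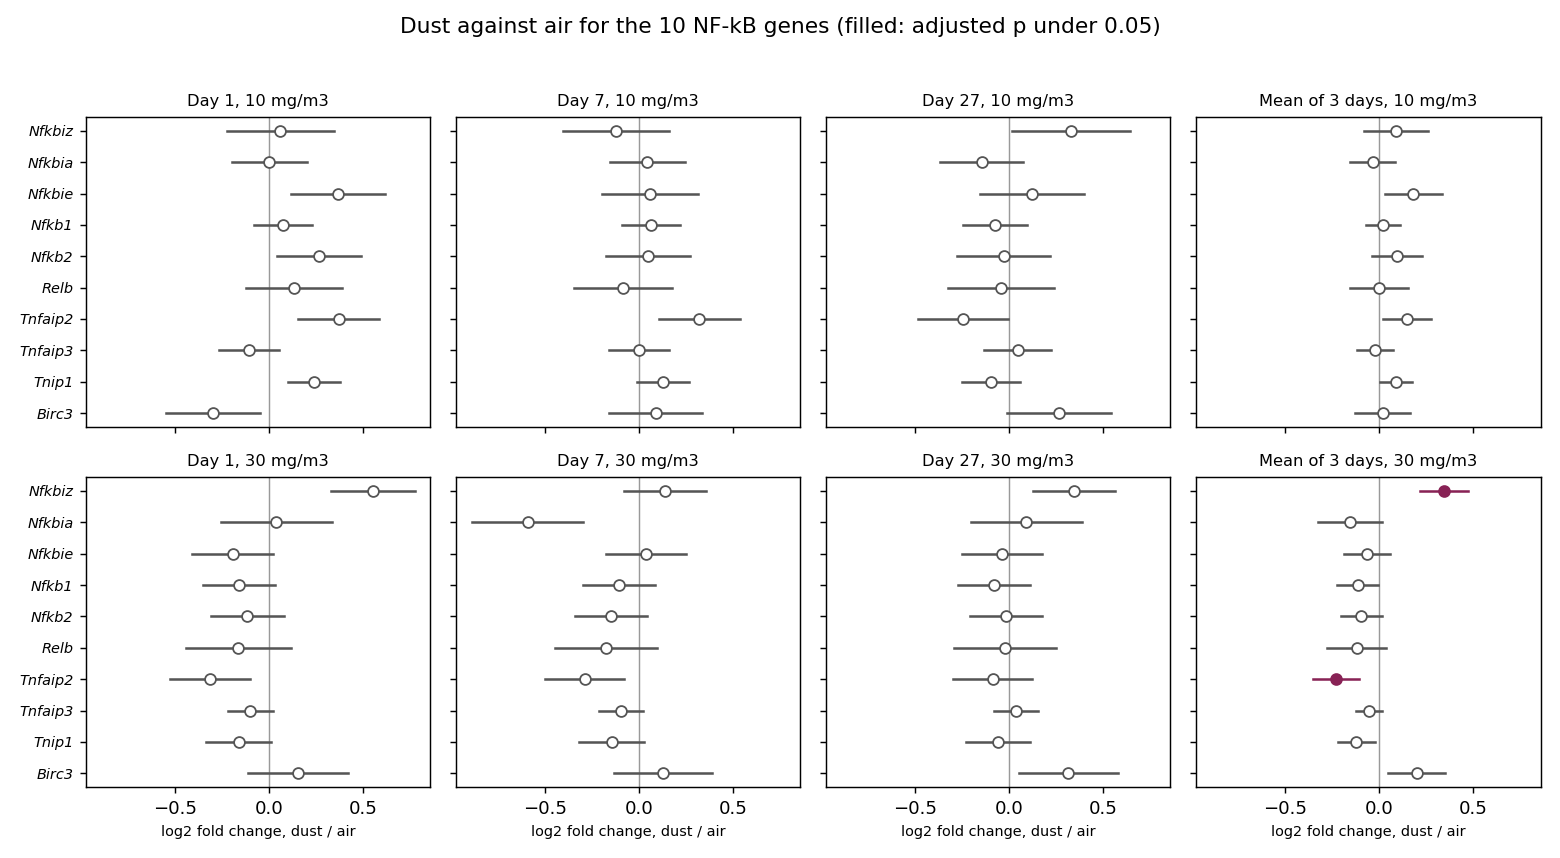
Log2 fold changes of dust against air (horizontal axes) with 95% confidence intervals for the 10 members at each day and for the mean of the 3 days, at 10 and 30 mg/m3, with filled points for an adjusted p under 0.05. A reader should see filled points only for Nfkbiz (0.35) and Tnfaip2 (-0.23), both in the 30 mg/m3 mean.

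Of the subunit genes, Nfkb1 encodes the precursor of the DNA-binding subunit of the classical pathway. At day 1 of the 10 mg/m3 study its level was 157 ± 10.5 CPM with air and 166 ± 7.54 CPM with dust (SD, n = 5 each). In the 30 mg/m3 study that day its lowest, median and highest levels were 98.1, 149 and 169 CPM in air and 124, 128 and 142 CPM in dust. The dust range lay inside the air range. Its mean effect at 30 mg/m3 was -0.11 ± 0.05 on the log2 scale (SE; edgeR adjusted p = 0.268). Without air rats 51 and 53 this became -0.16 for Nfkb1, and the adjusted p fell to 0.0323.

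Nfkb2 encodes the corresponding precursor of the alternative pathway, whose processing depends on a separate kinase route. At day 1 of the 10 mg/m3 study it measured 35.0, 40.2, 45.2, 42.9 and 50.4 CPM in the air rats and 72.0, 42.0, 50.5, 47.8 and 48.4 CPM in the dust rats. Dust rat 27 was far above the other dust rats, which lay between 42.0 and 50.5 CPM and overlapped the air rats. In log2 the difference was 0.27 ± 0.11 (SE; edgeR adjusted p = 0.185), and 0.14 (adjusted p = 0.438) without that rat. With mitochondrial ribosomal RNA (its log2 share) as a covariate it was 0.08 for Nfkb2 (adjusted p = 0.816). At 30 mg/m3 the daily values for Nfkb2 were -0.11, -0.15 and -0.01, each within 2 SE of 0.

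Relb, the partner of the Nfkb2 product in the alternative pathway, had no unadjusted p under 0.05 in any dust comparison. Its log2 fold changes ran from -0.17 ± 0.13 at day 7 of the 30 mg/m3 study to 0.13 ± 0.12 at day 1 of the 10 mg/m3 study (SE). The 95% intervals of these 2 values, -0.44 to 0.10 and -0.12 to 0.39, show the size of change that these groups leave unresolved. Relb had as few as 37 counts in a library.

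Nfkbiz had the lowest p of any member in the 30 mg/m3 study. At day 1 the air rats had 19.2, 18.4, 20.05, 22.1, 17.1 and 18.9 CPM, and the dust rats 21.03, 25.1, 34.3, 33.9, 27.2 and 27.9 CPM. Of the 6 dust rats, 5 lay above the highest air rat, and the remaining one, at 21.03 CPM, lay within the air range. The log2 fold change was 0.55 ± 0.11 (SE; 95% interval 0.33 to 0.78), or 1.47-fold. Its unadjusted p of 1.40e-05 ranked 1 among the 15551 genes tested, yet the adjusted p was 0.161. Leaving out air rat 53 or dust rat 57 brought the adjusted p for Nfkbiz under 0.05, and over all single rats left out it ran from 0.0184 to 0.405. Without air rats 51 and 53 together, the log2 fold change of Nfkbiz was 0.59 and the adjusted p 0.00863.

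At day 7 the levels of Nfkbiz had a median of 23.8 CPM in air (19.2 to 25.9) and of 25.97 CPM in 30 mg/m3 dust (20.9 to 29.4). These ranges overlapped, and the log2 fold change was 0.14 ± 0.11 (SE; edgeR adjusted p = 0.959). At day 27 the lowest, median and highest levels were 20.4, 24.0 and 25.5 CPM in air and 25.7, 27.4 and 38.6 CPM in dust. There the 6 dust rats all lay above the 6 air rats, although the lowest dust rat stood only just above the highest air rat. Nfkbiz was the only member without overlap at that day, against 0.463% of all genes. In log2 it was 0.35 ± 0.11 higher (SE; adjusted p = 0.414).

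Over the 3 days, Nfkbiz rose by 0.35 ± 0.06 on the log2 scale (SE; 95% interval 0.22 to 0.47), or 1.27-fold, with an edgeR adjusted p of 0.0128 and rank 3 among all genes. The call held in all 36 fits that left out 1 rat each, with adjusted p between 0.00206 and 0.0304. With mitochondrial ribosomal RNA (its log2 share) as a covariate the value for Nfkbiz was 0.32 and the adjusted p 0.126. The test of whether the effect depended on the day gave an unadjusted p of 0.0363 and an adjusted p of 0.981 for Nfkbiz. The mean effect was 0.36 (adjusted p = 0.00148) without air rats 51 and 53, and the test of the day then gave an adjusted p of 0.577. Beside this, summed levels of the 8 macrophage markers in the table were 694 to 741 CPM for the air rats and 569 to 687 CPM for the dust rats of day 1, without overlap, and 694 to 730 CPM for the air rats without rats 51 and 53. None of the 7 tested markers of that list was above 0, none was called, and their median log2 fold change was -0.19. The 14 neutrophil markers summed to 270 to 378 CPM in air and 206 to 556 CPM in dust that day. The air range was the same without rats 51 and 53. Medians of the sum were 301 CPM in air and 265 CPM in dust, and the highest dust value was that of rat 57. Among these markers 1, Cd177, was called over the 3 days, higher by 1.05 on the log2 scale (edgeR adjusted p = 0.0480). Cxcr1, with the next smallest p of the list, lay the other way at -0.20 and did not pass (adjusted p = 0.256). Of these markers, Elane was at 0 in every air rat and Mpo in every dust rat that day, and no macrophage marker was at 0. Over the 64 rats with group means taken out, Nfkbiz had a Pearson r of -0.080 with the mean log2 CPM of the macrophage markers. With that of the neutrophil markers r was -0.033, and neither passed (permutation test, adjusted p = 0.872 and 0.94). The part of macrophages and neutrophils in the Nfkbiz difference between dust and air was not tested.

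At 10 mg/m3, the level of Nfkbiz at day 1 was 26.1 ± 2.0 CPM for air rats and 27.3 ± 3.33 CPM for dust rats (SD, n = 5 each), a difference of 0.06 ± 0.14 in log2 (SE). At day 27 the 4 air rats had 15.05, 21.3, 28.8 and 28.0 CPM and the 4 dust rats 34.4, 21.4, 32.02 and 29.2 CPM. The dust rats overlapped the air rats, of which 1 was low at 15.05 CPM. In log2 the difference was 0.33 ± 0.15 (SE; edgeR adjusted p = 1.00), and 0.28 ± 0.20 with the clock score, which did not overlap between these groups, as a covariate. Averaged over the 6 dust comparisons of both studies, Nfkbiz was 0.22 ± 0.05 higher on the log2 scale, which did not pass at an adjusted p of 0.0741. In that average 0.0679% of 16190 genes passed and 2 members, Nfkbiz and Birc3, had an unadjusted p under 0.05, against 5.54% of genes. Birc3 was at 0.12 ± 0.05 (SE; edgeR adjusted p = 0.880). The averages were 0.22 for Nfkbiz (adjusted p = 0.0976) and 0.11 for Birc3 (adjusted p = 0.736) without air rats 51 and 53. DESeq2 called Nfkbiz in the same average, with an adjusted p of 0.0286, and limma voom called no member. Between the alternative settings, 1 to 25 of all genes passed in that average, against 11 in edgeR.

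Nfkbia, the inhibitor most quickly resynthesised after activation, stood out at day 7 of the 30 mg/m3 study. The 6 air rats had 307, 297, 162, 142, 142 and 246 CPM, and the dust rats 160, 145, 139, 155, 140 and 119 CPM. Among the air rats, 65, 66 and 71 were high, rat 68 at 162 CPM lay just above the highest dust rat, and the other 2 lay within the dust range. The log2 fold change was -0.59 ± 0.15 (SE; 95% interval -0.89 to -0.30), with an unadjusted p of 0.000273 and an edgeR adjusted p of 0.112. Without air rat 69 the adjusted p for Nfkbia was 0.0452. Nfkbia passed in only 1 of the 12 fits that left out 1 rat, and its adjusted p ran up to 0.355. At days 1 and 27 of that study its log2 fold changes were 0.04 and 0.09, and the test for dependence on the day gave an unadjusted p of 0.00318 and an adjusted p of 0.489 (0.367 without air rats 51 and 53).

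The air rats that were high in Nfkbia were also high in genes induced by glucocorticoid hormones, of which Nfkbia is itself one. Summed levels of 13 such genes were 1325, 1315 and 1076 CPM in rats 65, 66 and 71 and 880, 739 and 709 CPM in the other 3 air rats. The dust rats had 699 to 1000 CPM, and so overlapped the lower air rats. None of the 13 genes was called at day 7, and 2 of 13 were above 0, with a median log2 fold change of -0.30. The summed level of 11 heart muscle genes was 562 to 1929 CPM in the air rats and 149 to 389 CPM in the dust rats, without overlap. Mitochondrial ribosomal RNA made up 0.458% to 0.885% of counts in air and 0.109% to 0.453% in dust. With the log2 of that share as a covariate the Nfkbia value was -0.56 ± 0.18 (SE; edgeR adjusted p = 0.447). The part of the glucocorticoid-induced and heart muscle genes in it was not tested. At 10 mg/m3, the daily log2 fold changes of Nfkbia were 0.00, 0.05 and -0.14, with no unadjusted p under 0.05.

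Nfkbie, the inhibitor IκBε, had a higher mean with dust at day 1 of the 10 mg/m3 study but did not pass. The air rats had 13.2, 18.6, 17.6, 19.97 and 17.8 CPM and the dust rats 30.5, 19.7, 23.0, 21.9 and 19.5 CPM. Of the 5 dust rats, 3 lay above the highest air rat, and the groups overlapped. This gave a log2 fold change of 0.37 ± 0.12 (SE; edgeR adjusted p = 0.122), and the mean over the 3 days was 0.18 ± 0.07 (adjusted p = 0.479). At day 1 of the 30 mg/m3 study, air rats had 19.5 ± 2.25 CPM of Nfkbie and dust rats 17.03 ± 2.47 CPM (SD, n = 6 each), and the difference in log2 was -0.19 ± 0.11 (SE; adjusted p = 0.367).

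Tnfaip3, whose enzyme is the best-known brake of NF-κB signalling, had the smallest range of all members. Its group means ran from 35.2 to 42.4 CPM. Log2 fold changes in the 6 dust comparisons lay between -0.11 ± 0.08 and 0.05 ± 0.09 (SE), with no unadjusted p under 0.05. At 30 mg/m3 the mean effect on Tnfaip3 was -0.05 ± 0.03, and its 95% interval of -0.12 to 0.02 bounds the mean change in these groups.

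Tnip1, whose product binds ubiquitin chains and works with the Tnfaip3 enzyme, separated the day 1 groups of the 10 mg/m3 study. The air rats had 103, 109, 123, 115 and 127 CPM, and the dust rats 145, 130, 140, 131 and 137 CPM. Every dust rat lay above every air rat. The log2 fold change was 0.24 ± 0.07 (SE), with an unadjusted p of 0.00147 and an edgeR adjusted p of 0.0900. Without air rat 21, Tnip1 passed at an adjusted p of 0.0185, but 1147 of all genes passed in that fit, against 20 with all rats. Tnip1 passed in only 1 of the 10 fits that left out 1 rat, and its adjusted p ran up to 0.271. With mitochondrial ribosomal RNA (its log2 share) as a covariate the value for Tnip1 was 0.17 and the adjusted p 0.461, and with the clock score it was 0.20 and 0.639. All 8 alveolar type 2 markers were above 0 in the same comparison, with a median log2 fold change of 0.23 and none called. In the 30 mg/m3 study at day 1, the lowest, median and highest levels of Tnip1 were 111, 137 and 152 CPM in air and 94.7, 130 and 134 CPM in dust. Those groups overlapped, and the mean effect over the 3 days was -0.12 ± 0.05 (SE; adjusted p = 0.190), and -0.15 without air rats 51 and 53 (adjusted p = 0.0620).

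In the 10 mg/m3 study at day 1, Birc3 and Tnfaip3 were the members with a value below 0, and neither passed. For Birc3, the air rats had 15.97, 14.1, 19.2, 13.9 and 14.2 CPM and the dust rats 9.23, 12.9, 13.1, 13.5 and 13.1 CPM. The groups did not overlap, although the highest dust rat lay close to the lowest air rat. In log2 the difference was -0.30 ± 0.12 (SE; edgeR adjusted p = 0.184), and -0.61 (adjusted p = 0.628) with the clock score as a covariate in the Birc3 fit. At day 27, where the clock score again did not overlap, the value was 0.27 ± 0.13, and the test for dependence on the day gave an unadjusted p of 0.0116 and an adjusted p of 0.655.

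In the 30 mg/m3 study, Birc3 at day 27 had lowest, median and highest levels of 12.8, 14.7 and 19.6 CPM in air and 14.1, 18.7 and 25.8 CPM in dust. The ranges overlapped, and the log2 fold change was 0.32 ± 0.13 (SE; edgeR adjusted p = 0.566). Its mean over the 3 days was 0.20 ± 0.07 (adjusted p = 0.154), and 0.21 without air rats 51 and 53 (adjusted p = 0.0927). With 30 to 188 counts per library, Birc3 and Relb were the most thinly covered members.

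Tnfaip2, a cytokine-induced gene that takes part in the formation of membrane nanotubes, lay on opposite sides of 0 in the 2 studies at day 1. At day 1 of the 10 mg/m3 study the air rats had 24.7, 24.9, 29.5, 27.0 and 33.4 CPM, and the dust rats 36.6, 34.6, 41.0, 37.3 and 31.4 CPM. Of the 5 dust rats, 4 lay above the highest air rat. The log2 fold change was 0.37 ± 0.10 (SE), with an unadjusted p of 0.00139 and an edgeR adjusted p of 0.0900. Tnfaip2 passed at 0.0132 without air rat 21, a fit in which 1147 of all genes passed, against 20 with all rats. It passed in only 1 of the 10 fits that left out 1 rat, with adjusted p up to 0.268. At day 7 the air rats had 24.6, 30.99, 26.8, 27.1 and 31.7 CPM and the dust rats 36.3, 36.1, 30.4, 30.5 and 43.2 CPM. Here 3 of 5 dust rats exceeded all air rats, and the log2 fold change of Tnfaip2 was 0.32 ± 0.11 (SE; adjusted p = 0.996).

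At day 27 the order was turned, with 37.04, 35.0, 36.8 and 33.2 CPM in air and 33.4, 28.3, 26.7 and 31.6 CPM in dust. Of the 4 dust rats, 3 lay below the lowest air rat, and the log2 fold change of Tnfaip2 was -0.24 ± 0.12 (SE; edgeR adjusted p = 1.00), and -0.28 ± 0.15 with the clock score as a covariate. The test for dependence on the day gave an unadjusted p of 0.000829, which did not pass at an adjusted p of 0.655. In that test 0.0% of genes passed and 3 members, Tnfaip2, Tnip1 (0.00993) and Birc3, had an unadjusted p under 0.05, against 7.28% of all genes. The same test in the 30 mg/m3 study also passed 0.0% of genes, and 2 members, Nfkbia and Nfkbiz, had an unadjusted p under 0.05, against 4.42%. DESeq2 and limma voom called no member in either test.

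In the 30 mg/m3 study, Tnfaip2 at day 1 had lowest, median and highest levels of 24.5, 32.5 and 37.4 CPM in air and 23.1, 24.8 and 27.6 CPM in dust. At day 7 they were 26.5, 32.6 and 37.8 CPM in air and 23.6, 26.4 and 31.99 CPM in dust. Dust rats were lower on average but overlapped the air rats on both days. The log2 fold changes were -0.31 ± 0.11 and -0.29 ± 0.10 (SE; edgeR adjusted p = 0.212 and 0.679), and -0.09 ± 0.10 at day 27. Over the 3 days Tnfaip2 fell by 0.23 on the log2 scale (SE 0.06; 95% interval -0.35 to -0.11; adjusted p = 0.0482).

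That call for Tnfaip2 lay close to the threshold: it held in 11 of the 36 fits that left out 1 rat each, with adjusted p from 0.0157 to 0.0898. It was lost with the mitochondrial ribosomal RNA share (0.231) or the clock score (0.0991) as a covariate. Without air rats 51 and 53 the mean effect was -0.27 with an adjusted p of 0.00374, and at day 1 it was -0.44 with an adjusted p of 0.0160. Tnfaip2 is a gene of myeloid cells among others, and the macrophage markers given above were lower in the same day 1 dust rats; their part in the difference was not tested.

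The doses were compared as the difference between the dust effects of the 2 studies, each against its own air rats, in 1 fit of all 64 libraries. At day 1, 3 of the 10 members passed, each with a lower effect at 30 than at 10 mg/m3. Of all genes 10.4% passed in either direction, 4.47% lower and 5.89% higher. Passing or not, 4 of the 10 members were above 0. The difference was -0.67 ± 0.15 for Tnfaip2 (SE; 95% interval -0.96 to -0.37; edgeR adjusted p = 0.00557). It was -0.54 ± 0.16 for Nfkbie (SE; 95% interval -0.86 to -0.23; adjusted p = 0.0243) and -0.38 ± 0.11 for Tnip1 (SE; 95% interval -0.60 to -0.16; adjusted p = 0.0221). These 3 genes were above 0 at 10 mg/m3 and below 0 at 30 mg/m3, though none passed within either study that day. Nfkbiz lay the opposite way, at 0.51 ± 0.18 (adjusted p = 0.0513), as did Birc3, at 0.47 ± 0.18 (adjusted p = 0.0819), and Nfkb2 was at -0.36 ± 0.15 (adjusted p = 0.0898). With these, 6 members in all had an unadjusted p under 0.05, against 28.2% of genes.

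The day 1 difference held for Tnfaip2 in all 22 fits that left out 1 rat, for Tnip1 in 20 and for Nfkbie in 19. Without rat 17 or rat 61, 1 member remained called, and without air rat 53, 6 members were called. Over all genes, 2825 passed without air rat 53, against 1678 with all rats. Without air rats 51 and 53 together 6 were called, with -0.83 for Tnfaip2, -0.65 for Nfkbie and -0.49 for Tnip1. Between the alternative settings, this fit among them, 97 to 3115 of all genes passed. With mitochondrial ribosomal RNA (its log2 share) as a covariate no member passed, and the adjusted p of Tnfaip2 was 0.0556. The clock score separated the 10 mg/m3 groups at day 1, as given above, while the 30 mg/m3 groups overlapped in it, from -1.30 to 0.577 in air and from -1.01 to 0.538 in dust.

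At day 7 no member passed, as for 0.0% of genes, and 3 members had an unadjusted p under 0.05, against 8.02% of genes. The differences were -0.61 ± 0.15 for Tnfaip2 (SE; edgeR adjusted p = 0.157), -0.63 ± 0.18 for Nfkbia (adjusted p = 0.312) and -0.27 ± 0.11 for Tnip1 (adjusted p = 0.550). At day 27 no member passed and none had an unadjusted p under 0.05, where 0.0% and 1.75% of genes did. DESeq2 and limma voom called no member on either day. For the mean of the 3 days 2.09% of genes passed, 0.55% lower and 1.54% higher, and among the members Tnfaip2 alone passed and 5 had an unadjusted p under 0.05, against 22.4% of genes. For Tnfaip2 it was -0.38 ± 0.09 (SE; 95% interval -0.55 to -0.20; adjusted p = 0.0311). Not passing were Tnip1, at -0.21 ± 0.06 (adjusted p = 0.0604), Nfkbie, at -0.24 ± 0.09 (0.119), Nfkbiz, at 0.26 ± 0.10 (0.130), and Nfkb2, at -0.19 ± 0.08 (0.182). Tnip1 also passed, at -0.23 (adjusted p = 0.0234), without air rats 51 and 53. Between the alternative settings, that fit among them, 0 to 1421 of all genes passed for this mean, against 338 with all rats in edgeR. The call for Tnfaip2 was lost without any 1 of the rats 6, 16, 48 and 79, and with either covariate. The 2 studies were run with separate rats, and dose and study cannot be told apart.

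**Figure D4:**
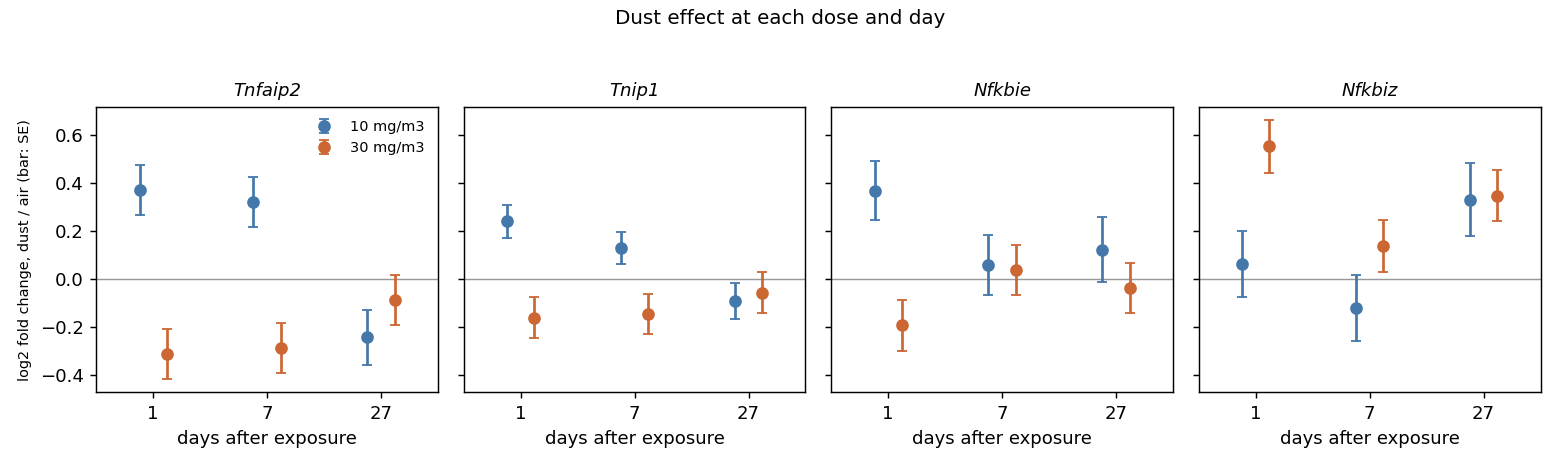
Log2 fold change of dust against air ± SE (vertical axes) at days 1, 7 and 27 (horizontal axes) for Tnfaip2, Tnip1, Nfkbie and Nfkbiz, in the 10 and the 30 mg/m3 study. A reader should see the effects on Tnfaip2 on opposite sides of 0 at day 1 (0.37 and -0.31) and close to each other at day 27 (-0.24 and -0.09).

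The members were also compared between days in rats that breathed only air. These comparisons use the air rats against which dust was compared, so they are not independent of the results above. In the 10 mg/m3 study Tnip1 rose from 115 ± 9.70 CPM at day 1 (SD, n = 5) to 143 ± 7.66 CPM at day 27 (SD, n = 4). This was 0.30 ± 0.07 on the log2 scale (SE; edgeR adjusted p = 0.0236), and 4 members had an unadjusted p under 0.05, against 18.8% of genes. The other 3 were Tnfaip2, at 0.34 ± 0.11 (adjusted p = 0.0805), Nfkbia, at 0.28 ± 0.10 (0.123), and Birc3, at -0.27 ± 0.13 (0.246). For calls, 1 of 10 members compares with 2.97% of genes, 2.08% upward and 0.894% downward. The call for Tnip1 held in 5 of 9 fits that left out 1 rat. Without air rat 21, 3 members were called, and without day 1 rat 18 or day 27 rats 1, 3 or 5, none was. Over all genes, 1467 passed without air rat 21, against 466 with all rats. The mitochondrial ribosomal RNA share ran from 0.0961% to 3.01% at day 1 and from 3.02% to 4.0% at day 27, without overlap, and with it as a covariate no member passed. At day 7 against day 1, no member passed, where 5.9% of genes did, no member had an unadjusted p under 0.05, against 22.9% of genes, and DESeq2 and limma voom called none.

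In the 30 mg/m3 study all 10 members were above 0 at day 27 against day 1 in air, with a median log2 fold change of 0.17. None passed in edgeR, where 12.9% of genes did, and 3 had an unadjusted p under 0.05, against 30.1%. These were Nfkb2, at 0.26 (adjusted p = 0.0605), Nfkbiz, at 0.28 (adjusted p = 0.0770), and Tnfaip3, at 0.14 (adjusted p = 0.109). DESeq2 called Nfkb2 and limma voom none. Between the alternative settings, 185 to 2410 of all genes passed, against 2007 in edgeR. No member passed without air rats 51 and 53 either, and the values were then 0.16 for Nfkb2 (adjusted p = 0.341), 0.32 for Nfkbiz (0.108) and 0.11 for Tnfaip3 (0.299). At day 7 against day 1, 0.116% of genes and no member passed, and 3 members had an unadjusted p under 0.05, against 12.0%. These were Nfkbia, at 0.53 ± 0.15 (SE; adjusted p = 0.147), Nfkb2, at 0.27 ± 0.10 (adjusted p = 0.231), and Nfkbiz, at 0.27 ± 0.11 (adjusted p = 0.319). DESeq2 and limma voom called no member there. Without those 2 rats, again none passed, at 0.44 for Nfkbia (adjusted p = 0.195), 0.16 for Nfkb2 (0.473) and 0.30 for Nfkbiz (0.247).

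Other parts of the pathway were read from 6 lists of genes. Ligands (6 genes tested), receptors (12), adaptors and ubiquitin enzymes (16), the IκB kinases and their upstream kinases (17), and the other subunits and inhibitors (5) held no called gene in any daily dust comparison or in the 30 mg/m3 mean. Among 24 target genes, 2 rose in the 30 mg/m3 mean, where 1.2% of all genes passed. These were Cxcl1, a neutrophil-attracting chemokine, by 0.64 ± 0.15 on the log2 scale (SE; edgeR adjusted p = 0.0321), and Lcn2, which encodes an iron-trapping protein of innate defence, by 0.75 ± 0.18 (adjusted p = 0.0354). Of these target genes, 16 of 24 were above 0, with a median of 0.06. Ikbke, an IκB kinase-related kinase, was closest to the threshold in the other lists, at 0.22 ± 0.06 (adjusted p = 0.0528).

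In the 10 mg/m3 mean no gene of the 6 lists passed, and 17 of 24 target genes were above 0, with a median log2 fold change of 0.08. The values with the smallest p were those of Gadd45b, a stress-response gene, at 0.33 ± 0.07 (SE; edgeR adjusted p = 0.118), and Tlr4, a receptor of bacterial lipopolysaccharide, at -0.19 ± 0.07 (adjusted p = 0.423). Rela, the main activating subunit, was 0.11 ± 0.06 at 10 mg/m3 (adjusted p = 0.576) and -0.17 ± 0.07 at 30 mg/m3 (adjusted p = 0.182). Over all 6 dust comparisons Gadd45b (0.23, adjusted p = 0.00745) and Lcn2 (0.68, adjusted p = 0.0289) rose, 2 of 25 target genes, against 0.0679% of all genes.

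Between the doses at day 1, 11 of the 81 genes tested from these lists passed (13.6%), 6 higher and 5 lower at 30 mg/m3. That share lies near the 10.4% of all genes that passed, so it does not set these lists apart. Rela had a lower effect, by -0.60 ± 0.17 (SE; edgeR adjusted p = 0.0182), as did Icam1, an adhesion molecule and target gene, by -0.46 ± 0.12 (adjusted p = 0.0150). The adaptor gene Traf6 (-0.86), the kinase-binding gene Tab1 (-0.44) and the receptor gene Tnfrsf1a (-0.38) were also lower. The kinase genes Ikbke (0.56), Chuk (0.43) and Tbk1 (0.37), the receptor gene Tlr4 (0.48) and the genes Tnip2 (0.39) and Itch (0.29) were higher. The median over all genes in that comparison was 0.05. For the mean of the days 1 of the 81 genes passed, against 2.09% of all genes: Tnip2, a relative of Tnip1, was 0.30 higher (adjusted p = 0.0346).

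From rat to rat, some members varied together. With the group means taken out, 31 of the 45 pairs of members had a positive Pearson r over the 64 rats, and 18 pairs, all positive, had a Benjamini-Hochberg adjusted p under 0.05 in a permutation test (Pearson), with 18 also for Spearman's rho. The median r was 0.176 and the range -0.235 to 0.668. The 2 highest pairs were Nfkb1 with Tnip1 (r = 0.668, rho = 0.648; 0.593 without the 2 rats farthest from the median) and Nfkbie with Nfkb2 (r = 0.661, rho = 0.578; 0.5997 without them). In the separate studies, r for Nfkb1 with Tnip1 was 0.678 at 10 mg/m3 and 0.665 at 30 mg/m3. Nfkbiz, Tnfaip3 and Birc3 were in none of the 18 pairs.

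Each point in these correlations is a library, and the libraries also differed in depth and in the share of mitochondrial ribosomal RNA. Over all 131049955 pairs of 16190 genes the median r was -0.0023, and 3.7% of pairs were above 0.5, against 11 of the 45 member pairs (24.4%). For Nfkb1, 595 of 16180 other genes (3.68%) had a higher r than its closest member Tnip1. For Nfkbie, 14 (0.0865%) had a higher r than Nfkb2, and for Nfkb2, 198 (1.22%) had a higher r than Nfkbie. For Nfkbiz, 3094 (19.1%) had a higher r than its closest member Birc3, at r = 0.176. Nfkb2 also followed the mitochondrial ribosomal RNA share, with r = 0.459 and rho = 0.489 (permutation adjusted p = 0.0417 for r over 50 relations). That r was 0.754 at 10 mg/m3 and 0.135 at 30 mg/m3, and 0.391 without the 2 farthest rats. Tnip1 and Nfkb1, the pair with the highest r, followed that share by rank, with rho = 0.427 and 0.398 (permutation adjusted p = 0.0287 and 0.0367), while their r of 0.363 and 0.339 did not pass (both adjusted p = 0.0688). For these 2 genes r was 0.575 and 0.540 at 10 mg/m3 and 0.272 and 0.249 at 30 mg/m3, and 0.329 and 0.274 without the 2 farthest rats.

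**Figure D5:**
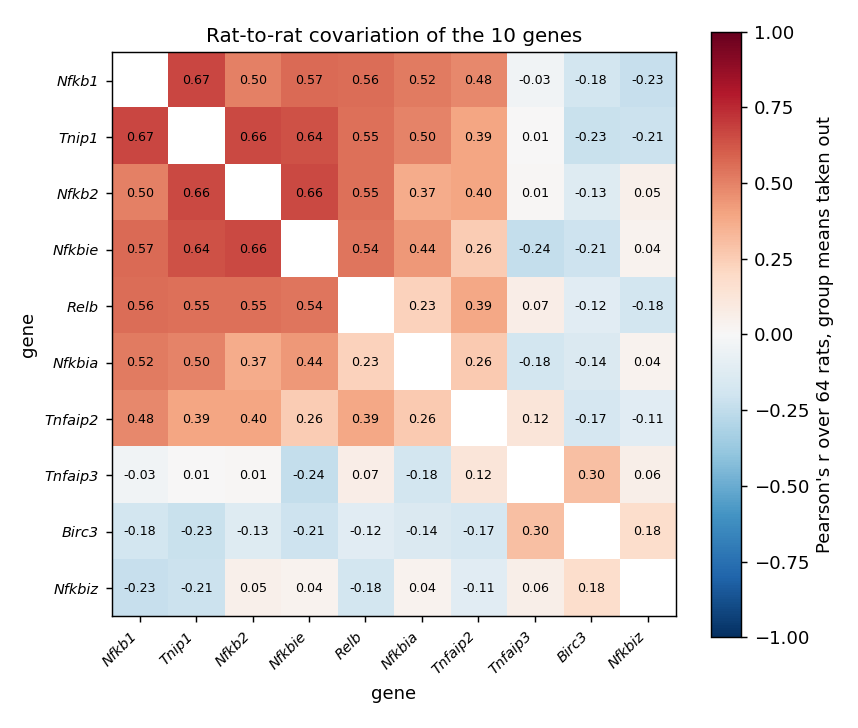
Pearson r of log2 CPM between each pair of the 10 members over 64 rats, with group means taken out, as colour from negative to positive. A reader should see the block of positive values among Nfkb1, Tnip1, Nfkb2, Nfkbie, Relb, Nfkbia and Tnfaip2, from 0.232 to 0.668, and values from -0.231 to 0.176 for Nfkbiz.

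Nfkbia followed another set of genes. Its level tracked the mean log2 CPM of 13 glucocorticoid-induced genes with r = 0.780 and rho = 0.665 (permutation adjusted p = 0.0005 for both, which rests on the smallest p that 100000 resamples can give), a relation looked for after the data were seen. It was 0.720 without the 2 farthest rats, 0.574 at 10 mg/m3 and 0.853 at 30 mg/m3. Birc3 ran against the same 13 genes by rank, with rho = -0.402 (permutation adjusted p = 0.0393), while its r of -0.386 did not pass (adjusted p = 0.0688). For Birc3 that r was -0.381 at 10 mg/m3, -0.390 at 30 mg/m3 and -0.409 without the 2 farthest rats. The 3 genes most like Nfkbia among 14877, by r over the 64 rats, were LOC498222 (0.763), Cebpd (0.742) and Ddit4 (0.697), of which Cebpd and Ddit4 belong to the same glucocorticoid list.

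The genes most similar to the other members were found by the same measure. Nfkb1 was closest to Myo1c (r = 0.880), Gpi (0.873) and Jup (0.870), and Nfkb2 to Lzts2 (0.800), Scrib (0.780) and Atf6b (0.771). The genes closest to Tnip1 included Dctn1 (0.828) and Hgs (0.796). Nfkbie was closest to Tom1 (0.699), Ptrf (0.688) and Mlf2 (0.682). Tnfaip2 was closest to Sirpa (0.690), a receptor of macrophages and other myeloid cells, and to Cebpa (0.603), a transcription factor of myeloid and alveolar epithelial cells, followed by LOC100911946 (0.602). With the mean log2 CPM of the macrophage markers, Tnfaip2 had r = 0.246 and rho = 0.271, and neither passed (permutation adjusted p = 0.276 and 0.257). Relb was closest to Chpf (0.641), Phc2 (0.627) and Litaf (0.619). For Nfkbiz these were Sptbn5 (0.689), Tcirg1 (0.619) and Ermard (0.613). The genes closest to Tnfaip3 included Dlg1 (0.566) and Bmpr2 (0.556), and Birc3 followed Foxred1 (0.617), LOC103690122 (0.563) and LOC100910342 (0.556).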

How the data were processed

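Gene-level read counts of 64 rat lung libraries were used as deposited: whole numbers, 1 table per dose and 1 column per library, which the authors had not normalised. The submitters' processing notes name HISAT2 2.1.0, HTSeq 0.6.1, Trimmomatic 0.35, SAMtools 1.8 and bcl2fastq 2.19 and the build Rnor_6.0, and the counts are taken as made by the authors with these. Ribosomal RNA was depleted and a stranded kit was used, per the labels' protocols. No source used here states the annotation or the strand setting of the counting, so reads of overlapping or antisense genes cannot be told apart.

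Libraries were grouped by dose, exposure and day from their titles. Counts were fitted with edgeR 4.0.16 in R 4.3.3 (TMM factors, filterByExpr with minimum count 10 and total 15, robust quasi-likelihood F tests), with the 6 groups of a study in 1 fit. Doses were compared, and all 6 dust effects averaged, in a fit of all 64 libraries with 16190 genes. Benjamini-Hochberg adjustment ran over all genes tested, at 0.05. The common biological coefficient of variation was 16.11% at 10 mg/m3 and 16.74% at 30 mg/m3. The procedure was tested on counts simulated from the 30 mg/m3 study, with changes larger than those of the members. That test therefore does not show how well changes as small as theirs are found. DESeq2 1.42.0, limma 3.58.1 (voom), RLE factors, no filter, 2-group fits, 2 covariates (mitochondrial ribosomal RNA share, clock score) and fits without single rats, or without air rats 51 and 53, were alternatives. Correlations used log2 CPM with a prior count of 2.

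The members and gene lists were chosen with earlier results of these data known. All members are described, with the effect and adjusted p where they passed or had an unadjusted p under 0.05, or the p alone for dependence on the day; of the other lists, called genes are named, and genes with the smallest p only for the mean effects. The 3 genes most like a member are named from those with a mean of at least 1 CPM in both studies. For Tnip1 and Tnfaip3, 2 genes are named, and the other is not reported here. Promoter windows come from RefSeq (GRCr8). Protein motifs were not analysed here.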

Additional observations from a re-analysis of the deposited data

Results flagged for a closer look

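Of 120 combinations of member and group, 10 had 1 rat far from the rest of its group by Dixon's test, which chance alone gives in about 1 in 20. Dust rat 27 at day 1 of the 10 mg/m3 study, the library with the lowest total of 3420235 counts, was behind 3 of them: Nfkb2 at 72.0 CPM, Tnfaip3 at 36 CPM and Birc3 at 9.23 CPM. Nfkb2 was the highest of its group there, and Tnfaip3 and Birc3 the lowest. In the air groups of that study, Nfkbie was low in rat 34 at day 7, at 12.7 CPM, and Relb in rat 6 at day 27, at 12.3 CPM. Nfkbia was low in dust rat 45 at day 7, at 150 CPM.

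In the 30 mg/m3 study, Nfkbia was high in dust rat 59 at day 1, at 217 CPM, against a group median of 148 CPM. Tnip1 was low in air rat 69 at day 7, at 115 CPM. Birc3 was high in air rat 53 at day 1, at 17.1 CPM, and in air rat 83 at day 27, at 19.6 CPM.

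The dust effects of the 2 doses differed by test for 3 members at day 1, with log2 differences of -0.54 for Nfkbie, -0.67 for Tnfaip2 and -0.38 for Tnip1, and for Tnfaip2 over the mean of the days, at -0.38. Each value is the effect at 30 mg/m3 minus that at 10 mg/m3.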

How the results depend on the processing

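Single values were recomputed 1692 times, of which 1593 kept their direction and side of the threshold, 52 lost a call, 46 gained one and 1 reversed: Nfkbia in air, day 27 against day 1 of the 10 mg/m3 study, became -0.0146 when the share of mitochondrial ribosomal RNA was a covariate. Counts of called members are given below, by setting. With DESeq2 they were 2 at day 1 of 10 mg/m3, 2 for 10 mg/m3 air at day 27 against day 1, 1 each at days 1 and 7 of 30 mg/m3, 1 for 30 mg/m3 air at day 27 against day 1, 1 for the mean of 6 comparisons and 2 for the mean difference between doses. With the ribosomal RNA covariate they were 0 for 10 mg/m3 air at day 27, the 30 mg/m3 mean, the day 1 dose difference and the mean dose difference. With the clock score they were 1 for the 30 mg/m3 mean and 0 for the mean dose difference. Without a filter they were 0 for 10 mg/m3 air at day 27 and 1 for the 30 mg/m3 mean, which limma voom also put at 1. In fits of just the compared groups they were 0 for 10 mg/m3 air at day 27 and 1 (Nfkbiz) for 30 mg/m3 air at day 27. Without air rats 51 and 53 they were 3 at day 1 of 30 mg/m3, 6 for the day 1 dose difference and 2 for the mean dose difference. Over all genes the counts moved between these settings as well. They ran from 0 to 474 at day 1 of 10 mg/m3, from 1 to 1014 for the 30 mg/m3 mean, from 97 to 3115 for the day 1 dose difference and from 0 to 1421 for the mean dose difference. The cause was not tested.

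Leaving out single rats gave 0 to 2 members at day 1 of 10 mg/m3, 0 to 3 for 10 mg/m3 air at day 27, 0 to 1 at days 1 and 7 of 30 mg/m3, 1 to 2 for the 30 mg/m3 mean, and 0 to 1 for 30 mg/m3 air at day 7 (1 without rat 69) and day 27 (1 without rat 55). It gave 0 to 1 for the mean of 6 comparisons (1 without rat 5, 6, 14, 33 or 57), 1 to 6 for the day 1 dose difference (5 without rat 21, 29 or 57) and 0 to 2 for the mean dose difference. In the 10 mg/m3 study alone 7 pairs of members correlated past the threshold, against 18 over all rats. Over all genes, the count at day 1 of 30 mg/m3 was 0, and 877 without air rats 51 and 53. With single rats left out it ran from 1 to 1147 at day 1 of 10 mg/m3, from 2 to 1467 for 10 mg/m3 air at day 27, from 22 to 610 for the 30 mg/m3 mean and from 452 to 2825 for the day 1 dose difference. No paired analysis was possible because rat numbers are unique to each library and shared by no groups. Counting error limits Birc3 and Relb most, and 4 to 6 rats a group limit all members.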
